A study of Mus musculus with 34 samples.

Results

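Levels of 10 genes linked to the periportal zone of the mouse liver lobule (Hal, Uroc1, Ftcd, Sds, Gls2, Etnppl, Cyp2f2, Hsd17b6, Hsd17b13 and Pigr) were compared between livers carrying different forms of beta-catenin. The genes were chosen by symbol, and all 10 were found among the 14086 genes of a table of normalized counts and among the 1659 genes of a table of z-scores. All 10 passed a filter of a mean of at least 10 normalized counts over 18 libraries, as did 6592 genes in all, and a gene can pass that filter through the groups where it is high.

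Blood enters the liver lobule beside the portal vein and leaves through the central vein, and hepatocytes along the way express different genes. Amino acid breakdown, urea synthesis and glucose production are concentrated in periportal hepatocytes, whereas glutamine synthesis and much of drug metabolism are pericentral. Signalling through beta-catenin is highest next to the central vein, where it maintains the pericentral genes, and in mouse liver its activation is known to lower periportal genes. Bulk libraries hold no position in the lobule, so "periportal" here rests on textbook knowledge of these genes.

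The 34 libraries were made from bulk mouse liver RNA. The labels give every group, wild type included, the same protocol of hydrodynamic injection, in which DNA is forced into hepatocytes with a large volume of fluid, and the same description of the tissue as frozen liver tumours. Normalized counts were available for 2 wild type libraries, 3 with the beta-catenin skip 1 isoform alone, 2 with the skip 2 isoform alone, 5 skip 1 induced, 2 skip 2 induced and 4 ΔN90-β-catenin induced. The skip isoforms are beta-catenin forms made by exon skipping, ΔN90-β-catenin lacks the N terminus through which the protein is marked for breakdown, and the labels do not say what induction added. Z-scores were available for the same 18 libraries and, scaled apart from them, for 4 subtype A tumours, 9 subtype B tumours and 3 libraries labelled sgActin and YAPS127A, a guide against actin with an activated form of the growth regulator YAP. For the 4 skip 2 libraries the source label says skip 2, but a second label field repeats skip 1. The source label was used. The labels name no promoter, strain, age, batch or animal, and p-values therefore cover only the variation among these libraries, which may be technical.

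Estimated reads ran from 361772 to 933146 per library of the count table, and the 2 skip 2 induced libraries were the deepest. Ctnnb1, the beta-catenin gene, was at 580 to 1266 normalized counts in skip 1 induced and at 444 to 457 in skip 2 induced libraries, against 135 to 199 in ΔN90 induced libraries and 125 to 177 in the 7 libraries without induction. The summed level of 16 general hepatocyte genes was 65610 to 85770 in the 7 libraries without induction and 23880 to 60370 in the 11 induced libraries. The summed level of the 9 biliary genes in the table was 14.6 to 46.9 without induction and 172 to 814 with it. With skip 1, skip 2 and ΔN90 induction, 6, 1 and 3 of 9 tested macrophage genes rose, and 3 of 7 stellate cell genes rose in each while 0, 1 and 1 fell. Of 8 tested endothelial genes none rose, and 1, Clec4g, fell with ΔN90 only. Among all 6592 genes tested, 432, 430 and 711 rose and 539, 555 and 788 fell. No T and NK cell, B cell or neutrophil gene passed the filter, and their summed levels were at most 6.13, 5.32 and 13. The part of hepatocyte share, other cell types and depth in the results on the 10 genes was not tested beyond the values given here. Fewer hepatocytes and less RNA per hepatocyte cannot be told apart in bulk samples.

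Hal, Ftcd, Hsd17b6 and Gls2 lie on chromosome 10 in the mm10 build with GENCODE M21 annotation, at chr10:93488768-93519304, chr10:76575648-76590338, chr10:127990936-128007611 and chr10:128194457-128210004. Hsd17b6 and Gls2 are 186845 bases apart. Uroc1 is at chr6:90333284-90364551, Sds at chr5:120476526-120483932 and Hsd17b13 at chr5:103955440-103977410. Etnppl is at chr3:130617448-130637521, Cyp2f2 at chr7:27119909-27133660 and Pigr at chr1:130826684-130852249. Counts were made over whole genes. RefSeq promoter windows on GRCm38.p6, the same build, were matched for 8 of the 10 genes and not for Sds and Gls2. RefSeq starts can differ from GENCODE starts, and the Uroc1 and Hsd17b13 windows reach into the gene coordinates given above. The 250 bases before the start are printed 5′ to 3′ on the gene's strand for the histidine enzymes Hal, Uroc1 and Ftcd, which share a pathway, and for Hsd17b13, which was not called with skip 2 or ΔN90 induction. Hal is at chr10:93488518-93488767 (plus strand), Uroc1 at chr6:90333039-90333288 (plus strand), Ftcd at chr10:76575398-76575647 (plus strand) and Hsd17b13 at chr5:103977389-103977638 (minus strand). Capitals mark matches to any of 5 motifs searched on both strands.
Hal: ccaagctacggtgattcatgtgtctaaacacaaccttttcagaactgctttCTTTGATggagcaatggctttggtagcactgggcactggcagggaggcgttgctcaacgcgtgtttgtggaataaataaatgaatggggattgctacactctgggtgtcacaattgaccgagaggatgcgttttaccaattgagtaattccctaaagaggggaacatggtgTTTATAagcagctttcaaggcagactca
Uroc1: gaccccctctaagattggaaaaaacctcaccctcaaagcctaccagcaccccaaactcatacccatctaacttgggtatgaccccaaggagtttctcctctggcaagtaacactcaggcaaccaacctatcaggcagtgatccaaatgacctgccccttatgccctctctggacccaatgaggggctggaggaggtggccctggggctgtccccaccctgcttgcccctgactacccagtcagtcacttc
Ftcd: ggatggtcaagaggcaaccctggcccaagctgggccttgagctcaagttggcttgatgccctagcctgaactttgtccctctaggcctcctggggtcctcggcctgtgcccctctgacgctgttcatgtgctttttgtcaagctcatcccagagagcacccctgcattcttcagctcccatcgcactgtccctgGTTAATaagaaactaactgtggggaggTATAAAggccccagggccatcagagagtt
Hsd17b13: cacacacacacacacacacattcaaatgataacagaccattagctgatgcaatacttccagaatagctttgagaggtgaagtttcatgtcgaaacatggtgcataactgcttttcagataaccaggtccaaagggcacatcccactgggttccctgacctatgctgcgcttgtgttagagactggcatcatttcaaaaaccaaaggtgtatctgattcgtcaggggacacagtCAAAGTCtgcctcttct

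The 5 motifs were ATCAAAG of the TCF/LEF factors that partner beta-catenin, CAAAGTC of HNF4, GTTAAT from the HNF1 site, TGACGTC of CREB and the TATA box letters TATAAA. The motifs ATCAAAG and CAAAGTC share the letters CAAAG and can overlap. ATCAAAG was found in the window of 1 of the 8 genes, Hal, as CTTTGAT 193 to 199 bases before the start, and in 3.21% of all 32851 windows. CAAAGTC was found for Hsd17b13 only, 11 to 17 bases before the RefSeq start, and in 3.84% of all windows. By the GENCODE coordinates given above, that match lies inside the gene. GTTAAT was found for Ftcd, 51 to 56 bases before the start, and for Etnppl, and in 6.43% of all windows. Etnppl had it in only 1 of its RefSeq windows, at a place inside the gene by the GENCODE coordinates. TATAAA was found for Ftcd at 24 to 29 bases and, as TTTATA, for Hal at 23 to 28 bases before the start, and in 12.4% of all windows. TGACGTC was in none of the members' windows and in 2.78% of all windows. The GC content was 45.6% for Hal, 55.6% for Uroc1, 56.0% for Ftcd and 44.8% for Hsd17b13, against a median of 52.4% over all windows. No binding was measured in these samples, and these matches describe letters only.

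The enzymes of histidine breakdown were lower in the induced libraries. Hal encodes histidine ammonia-lyase, which removes ammonia from histidine. Hal was at 225 and 292 normalized counts in wild type, 301, 421 and 367 in skip 1 alone, and 169 and 216 in skip 2 alone. It was at 42.0, 65.7, 23.2, 10.8 and 45.8 in skip 1 induced, 11.5 and 36.9 in skip 2 induced, and 2.36, 8.16, 5.02 and 1.99 in ΔN90 induced libraries. Every induced library lay below every library without induction, and every ΔN90 induced library lay below every other induced library. Uroc1 encodes urocanase, the enzyme after Hal. Its counts were 304 and 333 in wild type, 291, 381 and 354 in skip 1 alone, and 248 and 323 in skip 2 alone. They were 99.4, 169, 27.7, 29.0 and 52.4 in skip 1 induced, 29.3 and 70.8 in skip 2 induced, and 17.9, 24.6, 10.1 and 4.99 in ΔN90 induced libraries. The induced and other libraries did not overlap, and neither did ΔN90 induced and the other induced libraries. Ftcd encodes the folate-dependent enzyme that ends the pathway by moving a one-carbon unit to tetrahydrofolate. Ftcd was at 93.6 to 180 in the 7 libraries without induction, at 31.6 to 78.6 in skip 1 induced, 40.5 and 44.7 in skip 2 induced, and 16.9 to 58.2 in ΔN90 induced libraries. The induced libraries again lay below all others, but the 3 induced groups overlapped.

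Sds, Gls2 and Etnppl act on serine, glutamine and phosphoethanolamine. Sds, serine dehydratase, makes pyruvate and ammonia from serine. Its counts were 38.5 and 21.6 in wild type, 37.8, 69.0 and 27.7 in skip 1 alone, and 24.3 and 21.97 in skip 2 alone. They were 9.68, 12.9, 4.64, 5.42 and 7.45 in skip 1 induced and 1.84 and 7.74 in skip 2 induced libraries, and in the ΔN90 induced libraries Sds was at 0.786 in replicate 1 and at 0 in the other 3. Every induced library was below every other library. Gls2, the liver glutaminase that releases ammonia from glutamine, was at 125 to 318 without induction, 14.4 to 71.9 in skip 1 induced, 18.97 and 26.7 in skip 2 induced, and 6.15 to 33.8 in ΔN90 induced libraries. The 3 induced groups of Gls2 overlapped, and all lay below the 7 other libraries. Etnppl breaks down phosphoethanolamine and was at 58.1 and 73.2 in wild type, 18.1, 154 and 106 in skip 1 alone, and 59.1 and 45.4 in skip 2 alone. It was at 11.8, 33.3, 6.51, 1.81 and 3.2 in skip 1 induced, 2.76 and 11.9 in skip 2 induced, and 0.788, 0, 3.77 and 0 in ΔN90 induced libraries. Replicate 1 of skip 1 alone, at 18.1, was below the highest skip 1 induced library, so these groups overlapped.

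Cyp2f2, a cytochrome P450 that is a common marker of periportal hepatocytes in mouse, had the widest range. It was at 865 and 645 in wild type, 607, 769 and 1028 in skip 1 alone, and 651 and 823 in skip 2 alone. It was at 176, 343, 39.0, 45.1 and 100.1 in skip 1 induced, 12.4 and 59.6 in skip 2 induced, and 1.57, 8.16, 6.27 and 0 in ΔN90 induced libraries. The 11 induced libraries lay below the 7 others, and ΔN90 induced lay below the other induced libraries. Hsd17b6, a dehydrogenase of sterols and retinol, was at 94.1 and 93.3 in wild type, 38.1, 48.9 and 58.2 in skip 1 alone, and 32.7 and 22.2 in skip 2 alone. It was at 20.7, 29.0, 15, 7.30 and 11.8 in skip 1 induced, 18.6 and 30.7 in skip 2 induced, and 1.59, 1.03, 0 and 1.00 in ΔN90 induced libraries. Wild type stood above all other groups, and skip 2 induced overlapped with skip 2 alone.

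Hsd17b13, a protein of lipid droplets, was at 72.6 and 71.6 in wild type, 79.1, 105 and 148 in skip 1 alone, and 105 and 109 in skip 2 alone. It was at 80.2, 113, 29.8, 35.3 and 27.7 in skip 1 induced, 97.6 and 90.4 in skip 2 induced, and 40.5, 27.6, 28.9 and 41.8 in ΔN90 induced libraries. Replicates 1 and 2 of skip 1 induced overlapped with the libraries without induction, and both skip 2 induced libraries were above wild type. Pigr, the receptor that carries polymeric immunoglobulins across cells into bile, was at 709 to 993 without induction, 233 to 747 in skip 1 induced, 367 and 506 in skip 2 induced, and 193 to 568 in ΔN90 induced libraries. Replicate 2 of its skip 1 induced libraries, at 747, overlapped with skip 1 alone, and its skip 2 and ΔN90 induced libraries lay below all 7 libraries without induction. Relative to the wild type mean, ΔN90 induced means ran from 0.53% for Cyp2f2 to 54.7% for Pigr, with a median over the 10 genes of 3.13%. The medians were 16.1% in skip 2 induced, with a range from 4.77% for Cyp2f2 to 130% for Hsd17b13, and 24.6% in skip 1 induced, with a range from 14.5% for Hal to 79.3% for Hsd17b13. Per kilobase of exon, Cyp2f2 was the highest member in wild type at 373 normalized counts and Etnppl the lowest at 7.95.

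**Figure D1:**
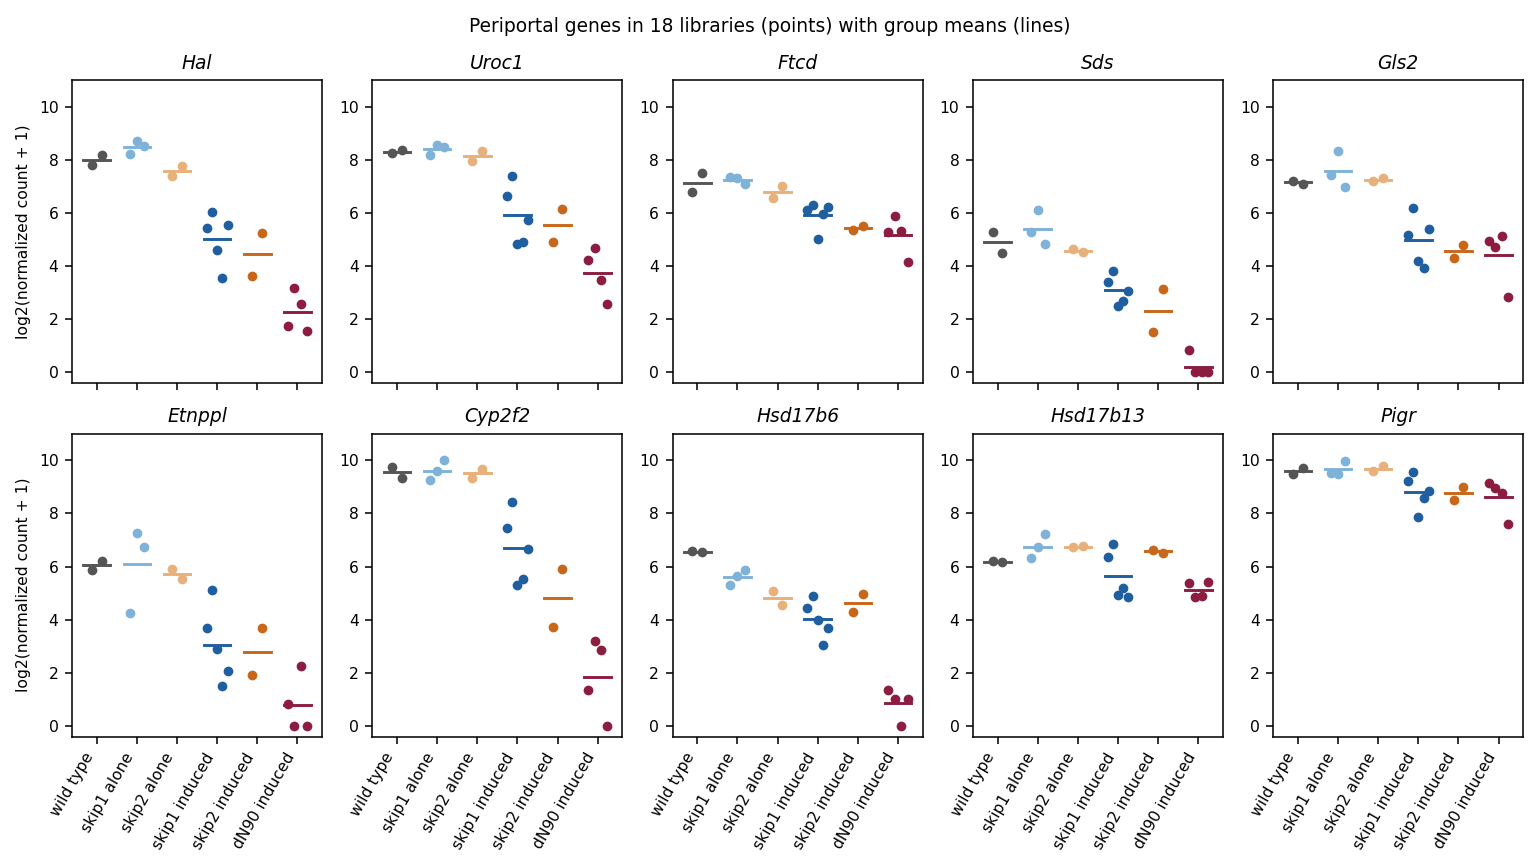
Each panel shows 1 gene, the vertical axis gives log2(normalized count + 1), points are libraries and lines are group means of the 2 to 5 libraries of a group. The 11 induced libraries lie below the 7 others for Hal, Uroc1, Ftcd, Sds, Gls2 and Cyp2f2.

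In 6 of the 10 genes all 11 induced libraries lay below all 7 libraries without induction, a pattern found in 5.37% of all genes tested. The lowest group mean was that of ΔN90 induced libraries in 9 genes, the exception being Gls2, which was at 22.8 ± 5.48 (SD, n = 2) in skip 2 induced and 23.9 ± 12.3 (n = 4) in ΔN90 induced libraries. In 4 genes, Sds, Etnppl, Cyp2f2 and Hsd17b6, at least 1 library was at 0, and all such libraries were ΔN90 induced. Single libraries stood high or low in many of the genes, with and without induction, but not in wild type, where replicate 1 was the higher in 5 genes and replicate 2 in 5. Replicate 1 of skip 1 alone was the lowest of its group for Hal, Uroc1, Etnppl, Cyp2f2, Hsd17b6 and Hsd17b13. Replicate 2 of skip 2 alone was above replicate 1 in all genes but Sds, Etnppl and Hsd17b6. Replicate 2 of skip 1 induced was the highest of its group in all 10 genes, and replicates 1 and 2 were the top pair in 7. Replicate 4 of ΔN90 induced was the lowest of its group in 6 genes, and skip 2 induced replicate 1 was below replicate 2 in 9, with Hsd17b13 as the exception. The same replicate 2 of skip 1 induced had the highest level of Alb, the albumin gene, in its group, 35390 against 8019 to 20190 in the other 4. The pericentral gene Glul went the other way. It was at 558 and 500 in replicates 1 and 2 of skip 1 induced, against 1227 to 1910 in replicates 3 to 5.

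Induction of skip 1 was compared with skip 1 alone on the scale of log2(normalized count + 1), with limma across all genes and Benjamini-Hochberg adjustment, and an adjusted p below 0.05 counted as a call. In all, 9 of the 10 genes fell, while 8.18% of all genes tested fell. Hal fell by 3.45 (SE 0.45, limma adjusted p 3.99e-05), Uroc1 fell by 2.50 (SE 0.49, adjusted p 0.00168) and Ftcd fell by 1.33 (SE 0.32, adjusted p 0.00721). Sds fell by 2.32 (SE 0.44, limma adjusted p 0.00137), Gls2 fell by 2.60 (SE 0.47, adjusted p 0.000987) and Etnppl fell by 3.04 (SE 0.73, adjusted p 0.00718). Cyp2f2 fell by 2.93 (SE 0.66, limma adjusted p 0.00476), Hsd17b6 fell by 1.59 (SE 0.37, adjusted p 0.00571) and Hsd17b13 fell by 1.13 (SE 0.35, adjusted p 0.0349). Pigr differed by -0.84 (SE 0.33, limma adjusted p 0.0938). The median difference of the 10 genes was -2.41, against -0.02 over all genes tested. In 7 genes the groups did not overlap, as in 10.7% of all genes tested in this direction, and each had an exact permutation p of 0.0357 (two-sided), the smallest that 5 against 3 libraries allow. The Etnppl call was lost without skip 1 alone replicate 2 or 3, where its difference was between -3.96 and -2.45 over all single omissions. The Hsd17b13 call was lost without skip 1 alone replicate 2 or 3 or skip 1 induced replicate 3, 4 or 5, with differences of -1.43 to -0.90 over all single omissions, and Pigr was called without skip 1 induced replicate 2. The Hsd17b13 call was also lost under quantile, upper-quartile and voom scaling, relative to the hepatocyte genes and in a fit on the compared groups only.

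Induction of skip 2, set against skip 2 alone, lowered 6 of the 10 genes, against 8.42% of all genes tested. Cyp2f2 fell by 4.68 (SE 0.91, limma adjusted p 0.00141), Hal fell by 3.14 (SE 0.62, adjusted p 0.00173) and Uroc1 fell by 2.61 (SE 0.67, adjusted p 0.0112). Gls2 fell by 2.69 (SE 0.65, limma adjusted p 0.00736), Sds fell by 2.27 (SE 0.60, adjusted p 0.0136) and Ftcd fell by 1.35 (SE 0.43, adjusted p 0.0394). Etnppl differed by -2.92 (SE 0.99, limma adjusted p 0.0516) and Pigr by -0.93 (SE 0.46, adjusted p 0.184). Etnppl was called with pseudocount 5, with no filter, by voom, with depth as a covariate and in a fit on the compared groups only (limma adjusted p 0.0113 to 0.045), and that last fit called Pigr as well. For Hsd17b13 the difference was -0.19 (SE 0.48, limma adjusted p 0.846) and for Hsd17b6 -0.17 (SE 0.50, adjusted p 0.871), and the sign of both turned under upper-quartile scaling and under scaling to estimated reads or to the hepatocyte genes. The median of the 10 genes was -2.44, against -0.06 over all genes tested. In 9 genes the groups did not overlap, as in 32.6% of all genes tested in this direction, and the smallest exact permutation p that 2 against 2 libraries allow is 0.333. With 2 libraries a group, single libraries decided calls. Without skip 2 induced replicate 1 the count fell from 6 to 1, Cyp2f2, and without skip 2 alone replicate 2 to Hal and Cyp2f2. Without skip 2 alone replicate 1 the calls of Ftcd and Sds were lost, and without skip 2 induced replicate 2 that of Ftcd was lost while Etnppl was called.

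The labels give no ΔN90 group without induction, so wild type stood in as the reference. The ΔN90 form and induction therefore cannot be told apart in this comparison, unlike with the skip isoforms. Against wild type, ΔN90 induced libraries were lower in 8 of the 10 genes, and 12% of all genes tested fell. Cyp2f2 fell by 7.69 (SE 0.78, limma adjusted p 4.14e-07), Hal fell by 5.73 (SE 0.54, adjusted p 1.81e-07) and Hsd17b6 fell by 5.72 (SE 0.43, adjusted p 9.5e-09). Etnppl fell by 5.28 (SE 0.86, limma adjusted p 0.000123), Sds fell by 4.69 (SE 0.52, adjusted p 1.33e-06) and Uroc1 fell by 4.58 (SE 0.58, adjusted p 6.72e-06). Gls2 fell by 2.74 (SE 0.56, limma adjusted p 0.00123) and Ftcd fell by 1.99 (SE 0.38, adjusted p 0.000577). Hsd17b13 differed by -1.06 (SE 0.42, limma adjusted p 0.0737) and Pigr by -0.97 (SE 0.39, adjusted p 0.0809). Against the mean of the 3 groups without induction both were called too, Hsd17b13 at -1.43 (limma adjusted p 0.000887) and Pigr at -1.03 (adjusted p 0.00763). With that reference more of all genes tested were called as well. Hsd17b13 was also called in a fit on the compared groups only, and Pigr without ΔN90 induced replicate 1, while without replicate 4 Pigr differed by -0.63. The median of the 10 genes was -4.63, against 0.01 over all genes tested. All 10 genes had groups that did not overlap, as did 23.6% of all genes tested in this direction, and 4 against 2 libraries allow no exact permutation p under 0.133. These log2 differences can understate the change of genes near 0. They correspond to 53.1-fold for Hal, 52.5-fold for Hsd17b6 and 25.9-fold for Sds, below the ratios of reads, but to 207-fold for Cyp2f2. By estimated reads, scaled between libraries as in the deposited values, wild type was higher than ΔN90 induced by 200-fold for Cyp2f2, from 1540 and 15 reads (95% interval 121 to 358), and by 62.9-fold for Hal, from 550 and 17 reads (38.9 to 109). For Hsd17b6 the ratio was 94.8, from 195 and 4 reads (36.4 to 351), and for Sds 117, from 60 reads and 1 read (20.1 to 4683). These intervals cover counting error only.

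**Figure D2:**
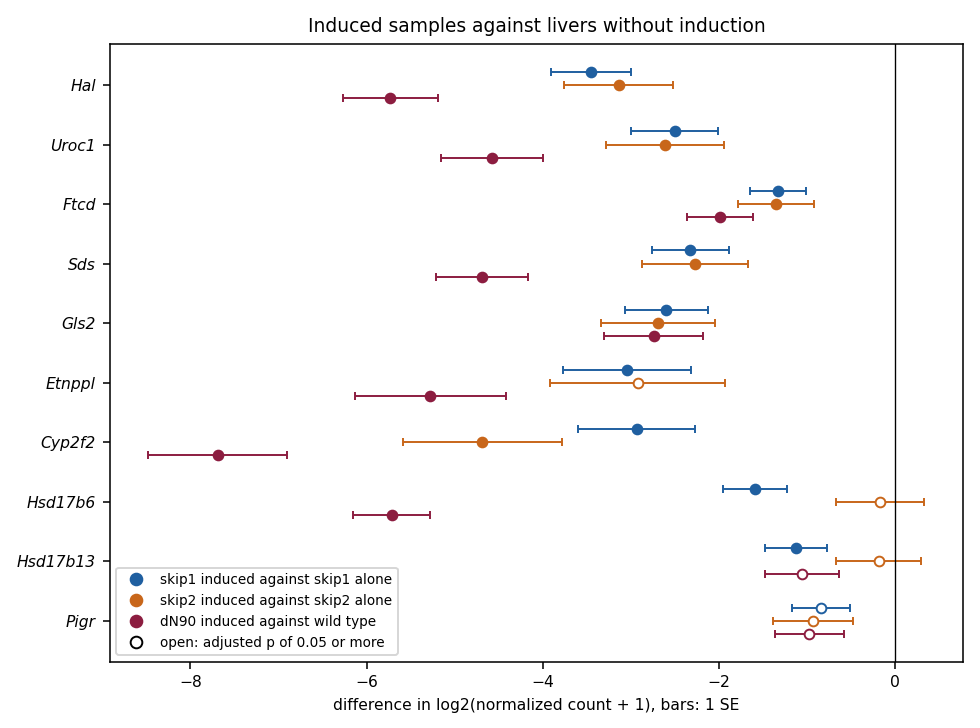
Horizontal axis: difference in log2(normalized count + 1) between induced libraries and their reference (skip 1 alone, skip 2 alone or wild type), with bars of 1 SE; filled points passed an adjusted p of 0.05. Cyp2f2 fell by 7.69 with ΔN90, and Hsd17b6 and Hsd17b13 lie near 0 with skip 2.

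The general hepatocyte genes were lower in the induced libraries too, and the libraries were also scaled to them. Scaling by total estimated reads with voom shifted the median difference of all genes to 0.44, 0.53 and 0.49 for skip 1, skip 2 and ΔN90 induction, and scaling to the mean of 16 hepatocyte genes shifted it to 0.63, 0.74 and 0.92. Relative to those hepatocyte genes, 7 of the 10 genes were still called lower with skip 1 (all but Ftcd, Hsd17b13 and Pigr), 4 with skip 2 (Hal, Uroc1, Gls2 and Cyp2f2) and 8 with ΔN90 (all but Hsd17b13 and Pigr), while 2.12%, 2.49% and 3.47% of all genes tested were called lower in this way. Alb was at 37820 ± 1541 (SD, n = 2) in wild type and 9471 ± 1639 (n = 4) in ΔN90 induced libraries. Among the 16 hepatocyte genes, 5 were called lower in each of the 3 comparisons, with medians of -0.50, -0.76 and -0.55, and quantile normalization turned these medians to 0.15, 0.23 and 0.09.

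The skip 1 and skip 2 induced libraries were compared with each other. None of the 10 genes was called by limma or by voom, the unadjusted p was below 0.05 for 2, while 3.53% of all genes tested were called in either direction. Cyp2f2 differed by 1.85 (SE 0.76, limma adjusted p 0.204), higher with skip 1, and by 0.76 without skip 2 induced replicate 1 and 2.94 without replicate 2, and Hsd17b13 by -0.94 (SE 0.40, adjusted p 0.229), higher with skip 2. The other 8 differences lay between -0.62 and 0.78, with the lowest limma adjusted p at 0.51. The skip 1 mean was the higher in 8 genes, and none of the 10 genes had groups that did not overlap, against 9.95% of all genes tested below and 10.1% above. The smallest exact permutation p for 5 against 2 libraries is 0.0952. Hsd17b13 was called without skip 1 induced replicate 2, at -1.24, and also without replicates 1 and 2 together. Its difference turned to 0.20 with depth as a covariate. The induction effects of skip 1 and skip 2, each against its own isoform alone, were also compared in an interaction term. None of the 10 genes was called in it by limma or by voom, the unadjusted p was below 0.05 for 1, and limma called 0.167% of all genes tested. Hsd17b6 had the difference of effects of -1.42 (SE 0.62, limma adjusted p 0.442), its fall being 1.59 with skip 1 and its difference -0.17 with skip 2, and the other 9 lay between -0.94 and 1.75.

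Both skip isoforms were then set against ΔN90, and the 2 comparisons share the 4 ΔN90 induced libraries. Skip 1 induced libraries were higher in 5 of the 10 genes, against 3.17% of all genes tested. Cyp2f2 was higher by 4.83 (SE 0.61, limma adjusted p 2.43e-05), Hsd17b6 by 3.17 (SE 0.34, adjusted p 2.16e-06) and Sds by 2.89 (SE 0.41, adjusted p 8.25e-05). Hal was higher by 2.76 (SE 0.42, limma adjusted p 0.000188) and Uroc1 by 2.17 (SE 0.45, adjusted p 0.00482). Etnppl differed by 2.28 (SE 0.67, limma adjusted p 0.0535) and Ftcd by 0.77 (SE 0.29, adjusted p 0.163), and Gls2, Hsd17b13 and Pigr by 0.20 to 0.57. The 5 called genes had groups that did not overlap, a pattern found in 3.85% of all genes tested in this direction, each with an exact permutation p of 0.0159, the smallest for 5 against 4 libraries. All 5 were called whichever library was left out, but by voom the Sds call was lost (adjusted p 0.0519). Etnppl was called with pseudocount 0.5, with no filter and under upper-quartile scaling, and also without ΔN90 induced replicate 3 or skip 1 induced replicate 4 or 5, and Ftcd without skip 1 induced replicate 3. Skip 2 induced libraries were higher than ΔN90 in 4 genes, against 0.576% of all genes tested. Hsd17b6 was higher by 3.79 (SE 0.43, limma adjusted p 7.29e-05), Cyp2f2 by 2.98 (SE 0.78, adjusted p 0.0428), Hal by 2.17 (SE 0.54, adjusted p 0.0318) and Sds by 2.11 (SE 0.52, adjusted p 0.0314). Uroc1 differed by 1.80 (limma adjusted p 0.109), Etnppl by 2.03 (adjusted p 0.281) and Hsd17b13 by 1.44 (adjusted p 0.0695), and Ftcd, Gls2 and Pigr by 0.14 to 0.28. Hsd17b13 was called under quantile normalization (limma adjusted p 0.0382) and by voom (adjusted p 0.035). The calls of Hal, Sds and Cyp2f2 were lost with pseudocount 5, by voom and in a fit on the compared groups only, and that of Sds under quantile normalization. In 6 genes the groups did not overlap, as in 11% of all genes tested in this direction, and the smallest exact permutation p for 2 against 4 libraries is 0.133. With skip 2, Hsd17b6 was called whichever library was left out, whereas the calls of Hal and Cyp2f2 were lost without ΔN90 induced replicate 1, 3 or 4 or either skip 2 induced library, and that of Sds without ΔN90 induced replicate 2, 3 or 4 or either skip 2 induced library. Without skip 2 induced replicate 2 the differences were 1.89 for Cyp2f2, 1.37 for Hal, 1.30 for Sds, 1.18 for Uroc1 and 1.14 for Etnppl. With depth as a covariate none of the 10 genes was called in that comparison, and neither was any other gene tested. The loss of these calls is therefore not particular to the members. In that fit Hal, Sds, Cyp2f2 and Hsd17b6 were still higher with skip 2. The differences of Hal and Cyp2f2 were larger than in the main fit, and those of Sds and Hsd17b6 were smaller. The skip 2 induced libraries were sequenced more deeply, 815419 and 933146 estimated reads against 361772 to 574899 in ΔN90 induced libraries, and the part of depth in the difference was not tested further.

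**Figure D3:**
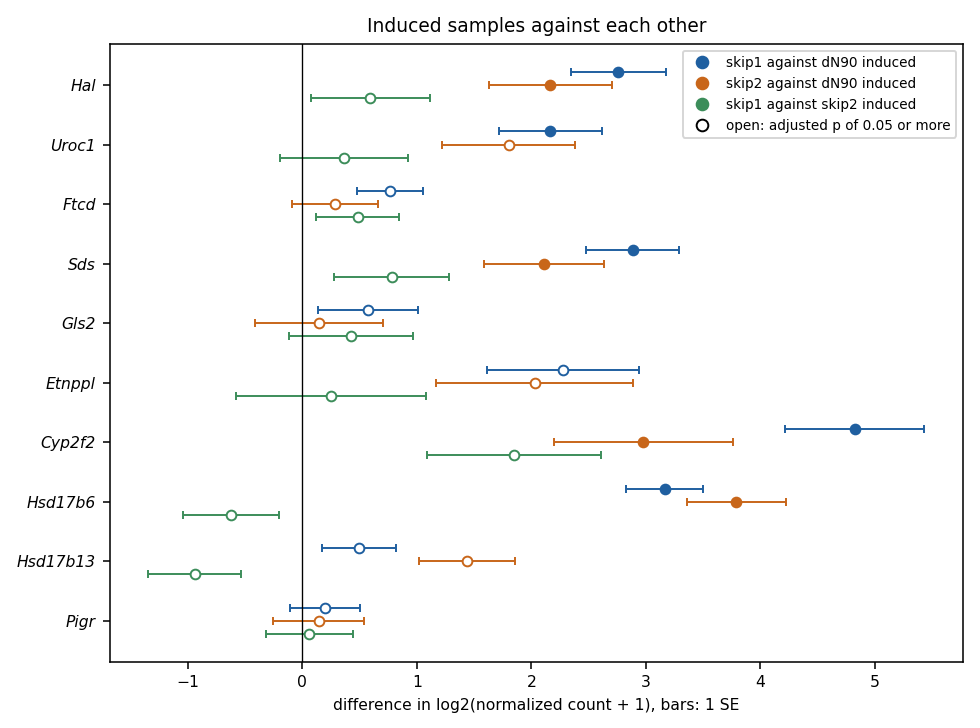
Horizontal axis: difference in log2(normalized count + 1) between pairs of induced groups, with bars of 1 SE; filled points passed an adjusted p of 0.05. Cyp2f2, Hsd17b6, Sds and Hal lie to the right of 0 for both skip isoforms against ΔN90, and all points of skip 1 against skip 2 are open.

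The isoforms alone were compared with wild type, and these comparisons share the 2 wild type libraries. With skip 1 alone none of the genes tested was called by limma or by voom (0%), and 272 genes, Hsd17b6 among them, had an unadjusted p under 0.05. With skip 2 alone limma called none of the 10 genes and 1 gene in all (0.0152%), and 330 genes had an unadjusted p under 0.05. Hsd17b6 was at 93.7 ± 0.57 (SD, n = 2) in wild type, 48.4 ± 10.04 (n = 3) with skip 1 alone and 27.5 ± 7.43 (n = 2) with skip 2 alone, which is 51.6% and 29.3% of wild type. Its difference from wild type was -0.96 (SE 0.46, limma adjusted p 1.0) with skip 1 and -1.76 (SE 0.50, adjusted p 0.669) with skip 2, where voom alone called it. The other 9 genes differed from wild type by 0.04 to 0.57 with skip 1 alone and by -0.43 to 0.56 with skip 2 alone. The groups did not overlap in 1 gene below and 2 genes above wild type with skip 1 alone (8.13% and 9.69% of all genes tested) and in 2 below and 1 above with skip 2 alone (14.8% and 20.7%). These were Hsd17b6 below and Hsd17b13 above with both isoforms, and Hal above with skip 1 and below with skip 2.

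Other genes of the same pathways were read from lists. Of 8 tested genes of histidine and one-carbon breakdown other than the members, 6 fell with skip 1, 5 with skip 2 and 6 with ΔN90 induction, with medians of -1.47, -1.38 and -1.27. Among them Amdhd1, the enzyme between Uroc1 and Ftcd, fell by 2.05 with skip 1 (SE 0.35, limma adjusted p 0.000591), fell by 1.44 with skip 2 (SE 0.48, adjusted p 0.0454) and fell by 3.44 with ΔN90 (SE 0.41, adjusted p 3.4e-06), so that all 4 steps of histidine breakdown were called lower in the 3 comparisons. With skip 2 the Amdhd1 call was lost under all 4 other scalings, with differences of -1.32 by quantile normalization (limma adjusted p 0.0894), -1.22 by upper-quartile scaling (adjusted p 0.0859), -0.87 by voom (adjusted p 0.101) and -0.64 relative to the hepatocyte genes (adjusted p 0.233). The Ftcd call with skip 2 was lost under the same 4 scalings, with differences from -1.13 to -0.55 (limma adjusted p 0.0766 to 0.288), with depth as a covariate (adjusted p 0.104) and without any 1 of the 4 libraries (adjusted p 0.0829 to 0.223). Gnmt, a glycine methyltransferase, fell by 2.07 with skip 1, fell by 2.24 with skip 2 and fell by 1.43 with ΔN90, and its ΔN90 call was lost under quantile normalization (limma adjusted p 0.0971), by voom (adjusted p 0.0501) and relative to the hepatocyte genes (adjusted p 0.199). Of 24 tested genes of other amino acid breakdown, 18 fell with skip 1, 13 with skip 2 and 16 with ΔN90, and none rose. Gldc, of the glycine cleavage system, fell by 2.69 with skip 1, fell by 2.08 with skip 2 and fell by 3.86 with ΔN90, and its skip 2 call was lost under upper-quartile scaling (limma adjusted p 0.0517) and relative to the hepatocyte genes (adjusted p 0.121). Of 21 other periportal genes tested, 12, 8 and 11 fell and none rose. Relative to the hepatocyte genes, the falls with skip 1, skip 2 and ΔN90 numbered 5, 1 and 1 in the histidine list, 8, 2 and 6 in the other amino acid list and 6, 1 and 6 in the other periportal list, and the medians of the 3 lists kept their sign under the 4 other scalings. There, 0, 0 and 1 of the histidine list, 2, 1 and 1 of the other amino acid list and 1, 3 and 4 of the other periportal list rose. Cps1, which starts the urea cycle, fell by 2.15 with skip 1 (limma adjusted p 0.00399), a call lost under quantile normalization at -1.19 (adjusted p 0.0974), but differed by -0.86 with skip 2 (limma adjusted p 0.416) and -0.84 with ΔN90 (adjusted p 0.297), both of which turned positive under quantile normalization, at 0.55 and 0.17. G6pc, the last enzyme of glucose production, fell by 1.78 with skip 1, fell by 2.77 with skip 2 and fell by 3.48 with ΔN90, and its skip 1 call was lost relative to the hepatocyte genes (limma adjusted p 0.0581). Of 14 pericentral genes tested, 3 rose and none fell with skip 1, none rose and 4 fell with skip 2, and 1 rose and 1 fell with ΔN90, while relative to the hepatocyte genes 9, 3 and 6 rose and 0, 3 and 1 fell. Hepatocyte scaling, like voom, raised the median difference of all genes in each of these comparisons. Most of all genes called under hepatocyte scaling rose, and their counts are given in the last section. Whether the pericentral rises go beyond those of all genes was not tested. Glul, glutamine synthetase and a pericentral target of beta-catenin, was higher in skip 1 than in skip 2 induced libraries by 2.85 (SE 0.55, limma adjusted p 0.0073). The skip 1 induced libraries were uneven, at 500 to 1910 normalized counts, against 109.9 and 174.5 in skip 2 induced. Against skip 2 alone Glul fell by 2.08 with skip 2 induction (limma adjusted p 0.0374), a call lost under all 4 other scalings. Glul differed by 1.17 with skip 1 induction (limma adjusted p 0.113), where quantile, voom and hepatocyte scaling called it higher, and by -1.22 with ΔN90 (adjusted p 0.134).

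Hsd17b6 belongs to a family of dehydrogenases with close relatives nearby on chromosome 10, and the split of reads between such relatives by the authors' counting was not tested. Rdh9, at chr10:127776386-127792697, rose by 1.62 with skip 1 (SE 0.27, limma adjusted p 0.000454) and by 2.21 with skip 2 (SE 0.37, adjusted p 0.000322). With ΔN90 Rdh9 differed by 0.76 (limma adjusted p 0.0904), and it was called higher by quantile normalization at 0.95 (adjusted p 0.0433), by voom at 1.26 (adjusted p 0.00738) and relative to the hepatocyte genes at 1.67 (adjusted p 0.000681). Voom and hepatocyte scaling also raised the median difference of all genes with ΔN90, and most genes called under each rose. Of 9 tested relatives of the dehydrogenases, 4 fell and 1 rose with each skip isoform, and 5 fell with ΔN90, but relative to the hepatocyte genes 0, 0 and 1 fell, and the median with ΔN90 turned from -0.81 to 0.10. Hsd17b12, an enzyme of fatty acid elongation, fell by 0.71 with skip 1, fell by 1.36 with skip 2 and fell by 1.5 with ΔN90, and its skip 1 call was lost under all 4 other scalings, with differences from -0.57 by upper-quartile scaling (limma adjusted p 0.0649) to -0.26 by voom (adjusted p 0.315) and -0.065 relative to the hepatocyte genes (adjusted p 0.81). Relative to the hepatocyte genes its skip 2 and ΔN90 calls were lost too (limma adjusted p 0.137 and 0.0514).

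The genes outside the set whose 6 group means were most like the average of the 10 members were ranked by the root mean square difference of log2(normalized count + 1), each gene centred on its own mean. Over these 6 groups the closest was Aox3, an aldehyde oxidase, at 0.15, nearer than any member, the closest of which was Uroc1 at 0.24. Cyp3a11, a cytochrome P450, was at 0.25, Ttr, the thyroid hormone carrier transthyretin, at 0.27, and Kyat1, an aminotransferase, at 0.27. Hao1, Nnmt, Amdhd1 and Gldc followed at 0.31, 0.31, 0.31 and 0.32. The members themselves ranged from 0.24 to 1.43 for Cyp2f2, whose fall was deeper than the average, with Hsd17b13 at 1.12 and Pigr at 1.09 among those whose levels moved less. Aox3 was at 979 ± 7.31 (SD, n = 2) in wild type, 224 ± 94.9 (n = 5) in skip 1 induced, 175 ± 35.1 (n = 2) in skip 2 induced and 65.7 ± 12.4 (n = 4) in ΔN90 induced libraries.

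Tumours of subtype A and subtype B were compared on z-scores, in which each gene was centred and scaled over its own block, so that differences are in SDs of the gene and give no fold. All 10 genes were lower in both subtypes than in the sgActin and YAPS127A libraries, by -2.44 to -1.97 in subtype A and by -2.61 to -2.15 in subtype B, and limma called all 10. In a table of genes the authors selected, 55.6% of the 1659 genes were called lower in each comparison, and both share the 3 control libraries. No member's groups overlapped in either comparison, as in 55% and 55.3% of all genes. The exact permutation p was 0.00909 in subtype B and 0.0571 in subtype A, the smallest that 9 and 4 tumours against 3 controls allow. Control replicate 1 stood apart for Etnppl, at 3.32 against 1.06 and 1.24, and for Hsd17b6, at 3.56 against 0.65 and 0.92. Without it the difference of subtype A from the control was -1.48 for Etnppl and -1.04 for Hsd17b6, and that of subtype B -1.58 and -1.22, and these remained called.

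All 10 genes had a higher mean z-score in subtype A than in subtype B, and 6 were called higher, against 40.3% of the genes in the table. Hal was at -0.11, -0.41, -0.38 and -0.29 in the 4 subtype A tumours and at -0.53 to -0.40, with a median of -0.52, in the 9 subtype B tumours. Its ranges overlapped by 1 tumour of each subtype, and it was higher in subtype A by 0.21 (SE 0.07, limma adjusted p 0.0165). Hsd17b13 was at 0.25, -0.39, -0.25 and -0.28 in subtype A and at -0.69 to -0.43, with a median of -0.57, in subtype B. The groups of Hsd17b13 did not overlap, and it was higher in subtype A by 0.41 (SE 0.12, limma adjusted p 0.00812). Pigr was higher by 0.37 (SE 0.11, limma adjusted p 0.01), Ftcd by 0.33 (SE 0.08, adjusted p 0.00272), Uroc1 by 0.18 (SE 0.06, adjusted p 0.026) and Gls2 by 0.17 (SE 0.06, adjusted p 0.028). Cyp2f2 differed by 0.17 (limma adjusted p 0.0589), Sds by 0.12 (adjusted p 0.274), Hsd17b6 by 0.18 (adjusted p 0.658) and Etnppl by 0.10 (adjusted p 0.751). In 6 genes the groups did not overlap, as in 34.8% of all genes in the table in this direction, each with an exact permutation p of 0.0028, the smallest for 4 against 9 tumours. These were Uroc1, Ftcd, Gls2, Hsd17b13, Etnppl and Cyp2f2, of which limma did not call Etnppl and Cyp2f2. The called Hal and Pigr did overlap. The fit shared its spread with the control, where the SD of Etnppl was 1.26, against 0.061 in subtype A and 0.023 in subtype B. The median of the 10 genes was 0.18, against 0.19 over all 1659 genes. Subtype A replicate 1 was the highest of its group in all 10 genes, and without it 2 calls were left, those of Ftcd and Hsd17b13. The calls of Uroc1 and Gls2 were also lost without subtype A replicate 4. Fitted on the 2 subtypes without the control, all 10 genes were called. The share of all 1659 genes called in that fit is not given here, so the count is not a result about the members.

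**Figure D4:**
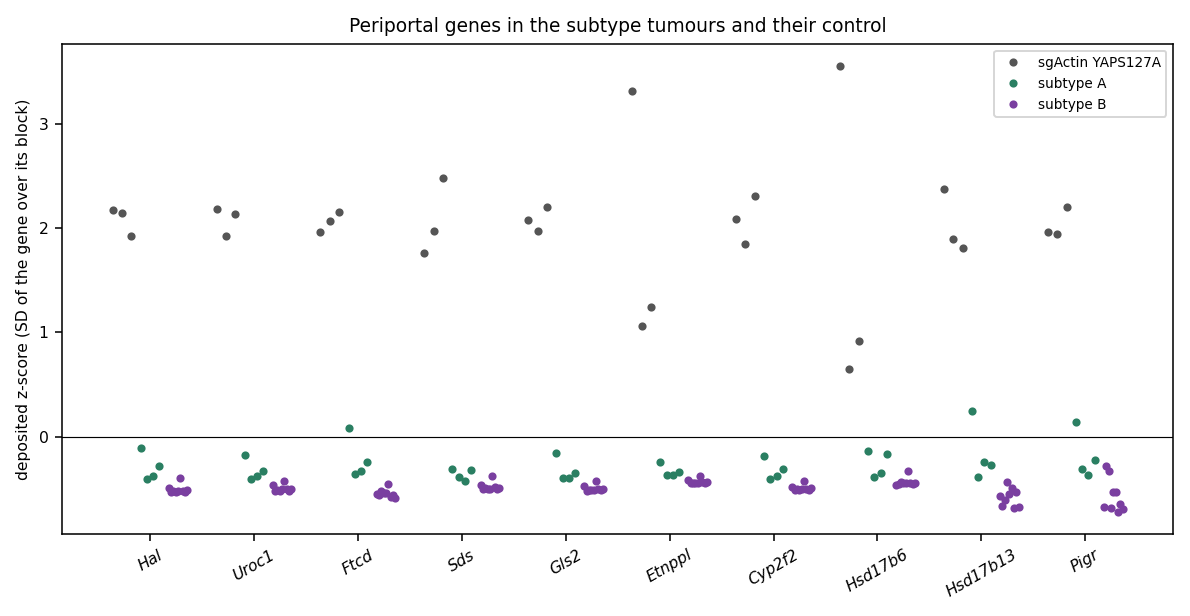
Vertical axis: deposited z-score in SDs of the gene over its block, with 1 point for each of 3 sgActin and YAPS127A libraries, 4 subtype A and 9 subtype B tumours. The control libraries lie above all tumours for every gene, and Etnppl and Hsd17b6 each have 1 control library above 3.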

How the data were processed

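Bulk RNA libraries of mouse liver were grouped by their source label. The submitters' processing notes name the mm10 build and the tools FastQC, STAR, RSEM and DESeq2, without versions. The first deposited table holds normalized counts, a signal per gene that is never negative, which the authors scaled between libraries by factors that no source used here states. Of the deposited values above 0, 59.3% to 60.5% per library were whole multiples (within 0.001) of 1 step, which gave estimated reads of 361772 to 933146 per library, a depth that leaves low genes imprecise. The second deposited table holds a score: z-scores that the authors made gene by gene for 1659 genes, which they had selected (how is not given in the sources used here). Judged by its values, 18 libraries were scaled together, on a scale close to log2(value + 1), and 16 others apart with 1 further library that is not used here, on a scale that is not known, as is their depth.

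For the counts, a filter on the mean (at least 10 across 18 libraries) kept 6592 of 14086 genes. Limma 3.58.1 (R 4.3.3) fitted log2(value + 1) by group with a trended prior. Tests were two-sided, with Benjamini-Hochberg adjustment over all genes kept. The spread was shared by the 6 groups. Limma without a trend was run on the z-scores of the 16 libraries, never across blocks. Exact permutation tests over libraries were run for each of the 10 genes. The fit was tested on simulated data with known changes. Fold ratios of estimated reads carry exact 95% intervals. Members, gene lists and tests were chosen with earlier results of these data known. Text names all 10 members, up to 4 called genes with the largest differences per list and comparison, Glul, Alb and Ctnnb1, and the 8 genes of most similar group means. Cps1 and G6pc, and Rdh9 with ΔN90, are also given in induction comparisons where the rule does not select them. Alternatives were other pseudocounts (0.5 and 5), no filter, a mean of at least 50, quantile and upper-quartile scaling, a fit on the compared groups only, voom on estimated reads, depth as a covariate, another reference for ΔN90, a robust prior and omission of each library. Scaling to the hepatocyte genes and omission of skip 1 induced replicates 1 and 2 together were added after the data were seen. Replicate numbers follow accession order and pair no samples. Sequences are from RefSeq (GRCm38.p6) and coordinates from GENCODE M21.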

Additional observations from a re-analysis of the deposited data

Results flagged for a closer look

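Of 40 sets of values in groups of 4 to 10 libraries, 6 held a library far from the others of its group by Dixon's test, and chance alone flags about 1 group in 20. Sds was at 0.786 normalized counts, 1 estimated read, in ΔN90 induced replicate 1, while the other 3 libraries of that group were at 0. The other 5 all came from subtype B replicate 6, the highest of its group in z-score for Hal at -0.40, Sds at -0.38, Etnppl at -0.38, Cyp2f2 at -0.42 and Hsd17b6 at -0.33. That tumour was the highest of the 9 in 8 of the 10 genes, which are values of 1 library and not independent of each other. Whether it differs in hepatocyte content was not tested.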

How the results depend on the processing

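No paired analysis was possible because replicate numbers only follow the order of accessions, so no sample has a partner. Members whose difference was given only as a range in a comparison were left out of the count of recomputed values. They were 8 between skip 1 and skip 2 induced and 3 for each skip isoform against ΔN90. A further 9 were left out in the interaction and for each isoform alone against wild type. Turns in direction of these members are therefore not counted. Of 1202 values of single members recomputed under alternatives, 1096 kept their direction and side of the threshold, 67 lost the call, 29 gained it and 10 turned in direction. The reversals were Hsd17b13 with skip 2 induction (0.13 by quantile, 0.035 by upper-quartile, 0.41 by voom and 0.61 by hepatocyte scaling), Hsd17b6 in the same comparison (0.048 by upper-quartile, 0.39 by voom and 0.63 by hepatocyte scaling, and -0.51 to 0.18 when single libraries were left out) and Hsd17b13 between skip 1 and skip 2 induced (0.20 with depth as a covariate). The causes were not tested. Requiring a mean of at least 50 removed members from the test, leaving 5 of 8 calls for ΔN90 against wild type, 3 of 5 for skip 1 against ΔN90 and 2 of 4 for skip 2 against ΔN90, and genes called fell to 545 of 971, 526 of 985 and 656 of 1499 in the 3 induction comparisons and to 0 of 1 for skip 2 alone. Calls for skip 2 against ΔN90 were otherwise 1 with pseudocount 5, 1 on the compared groups only, 2 by voom and 0 with depth as a covariate, and genes called moved from 200 to 7 on the compared groups only, 0 with depth and 373 by hepatocyte scaling. The 2 calls by voom were Hsd17b6 and Hsd17b13, the latter not called in the main fit. Hepatocyte scaling gave 2656 genes (2516 higher, against 432 of 971), 2207 (2043 higher, against 430 of 985) and 3762 (3533 higher, against 711 of 1499) in the induction comparisons, and 554 against 305 for skip 1 against ΔN90 (145 higher, against 209). Voom gave 1437 (1229 higher), 1623 (1374 higher) and 2186 (1795 higher) in the induction comparisons and 330 (160 higher) for skip 1 against ΔN90, and for skip 1 against skip 2 392 (267 higher, against 204 of 233). Upper-quartile scaling gave 593 of 953 and 618 of 986 higher with skip 1 and skip 2 induction, and quantile scaling 398 of 701 and 436 of 777, and 245 of 339 for skip 1 against skip 2. With depth as a covariate, 757 genes were called for ΔN90 against wild type and 13 for skip 1 against skip 2. Against the mean of the 3 groups without induction, ΔN90 gave 2471 genes. Without skip 1 induced replicates 1 and 2, 1 member was called between skip 1 and skip 2. Skip 2 alone gave 4 genes with pseudocount 5, 2 without a filter, 2 on the compared groups only and 4 by voom, which called 1 member. The interaction gave 21 genes with pseudocount 5, 17 by quantile scaling and 20 on the compared groups only, against 11. On the 2 subtypes without the control, all 10 members were called, against 6, with no share of all genes given beside it. With single libraries left out, genes called ranged from 568 (without skip 1 alone replicate 3) to 1217 for skip 1 induction, from 346 (without skip 2 induced replicate 1) to 788 for skip 2 induction, and from 871 (without wild type replicate 1, and 913 without replicate 2) to 1501 for ΔN90 against wild type. Without skip 2 induced replicate 1, 10 genes were called for skip 1 against skip 2 and 7 for skip 2 against ΔN90, the lowest counts, and without replicate 2, 342 and 308, the highest, and 150 in the interaction, whose lowest was 4. Each isoform alone gave 0 to 1. Members called ranged from 1 to 6 (skip 2 induction, lowest without skip 2 induced replicate 1), 0 to 1 (skip 1 against skip 2, highest without skip 1 induced replicate 2), 1 to 3 (skip 2 against ΔN90, lowest without ΔN90 induced replicate 3 or 4 or either skip 2 induced library) and 2 to 6 (subtypes, lowest without subtype A replicate 1). Depth leaves levels of a few reads, as of Sds, Etnppl, Cyp2f2 and Hsd17b6 with ΔN90, known only within their counting intervals.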
